A study of Oryza sativa with 6 samples.

Results

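The miR160 guide strands of rice were examined in small RNA libraries of 2 rice lines fed on by the brown planthopper (BPH), a sap-sucking insect. The members are the 6 known rice entries of the family for the 5p arm, osa-miR160a-5p, osa-miR160b-5p, osa-miR160c-5p, osa-miR160d-5p, osa-miR160e-5p and osa-miR160f-5p, and they were chosen by name. The prefix osa-, for Oryza sativa, is left out below. They hold 3 distinct mature sequences, out of 464 known rice miRNA entries with 337 distinct sequences and 1898 entries in all. P15 is an introgression line that carries the resistance locus BPH15, and PC is its susceptible recipient line, 9311. Seedlings of P15 were sampled after 0, 6 and 48 h of BPH feeding (P15-0, P15-6 and P15-48), and seedlings of PC likewise (PC-0, PC-6 and PC-48), where the 0 h plants were not infested. Infested seedlings carried 8 insects each. Each of the 6 libraries was made from the pooled tissue of 30 plants and each condition had 1 library, so the spread between plants was not measured. The sample labels name leaf sheaths at the four-leaf stage, whereas the methods of the study name stems of younger seedlings with fewer leaves. Each line stands for 1 genotype, so a difference between P15 and PC cannot be told apart from a difference in any other introgressed segment.

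miR160 is one of the oldest miRNA families of land plants. Its guide strand, cut from the 5p arm of the hairpin, pairs with the messenger RNAs of a group of auxin response factors (ARFs) and directs their cleavage. In Arabidopsis the targets are ARF10, ARF16 and ARF17, which act as repressors of auxin-responsive genes in leaf, root and seedling development. The 3p strand of the hairpin is the passenger strand, which is mostly discarded. The transcripts of the targets were not analysed here.

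The mature sequences are printed because the entries differ by so little that the sequence decides which of them can be counted apart. Bases 2 to 8, the seed by which a guide strand is usually grouped, are in capitals, and the letters are those of the deposited table, with T for U.
miR160a-5p, miR160b-5p, miR160c-5p and miR160d-5p: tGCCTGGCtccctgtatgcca
miR160e-5p: tGCCTGGCtccctgtatgccg
miR160f-5p: tGCCTGGCtccctgaatgcca
Positions are counted from 1 at the 5′ end. Against the sequence of miR160a-5p to miR160d-5p, miR160e-5p differed by A21G, its last base, and miR160f-5p by T15A. All 3 sequences were 21 nt long and began with T. They shared 1 seed, which was found in 7 entries of the whole table. Those were the 6 members and MIR160-x, an entry matched to miRNAs of other plants. No other known entry and none of the 695 predicted entries had this seed.

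The 4 entries with the same sequence were nearly the same measurement. Summed over the 6 libraries, miR160a-5p had 1855 reads, miR160b-5p 1859, miR160c-5p 1860 and miR160d-5p 1832. Within a library the lowest and the highest of the 4 were 2 to 8 reads apart, which was 0.647 to 2.43% of the highest. They are therefore given together as miR160a/b/c/d-5p, by the counts of miR160c-5p, and count as 1 mature sequence. The sources used here do not state whether entries that differ by 1 base share reads.

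The libraries held between 1078716 (P15-48) and 1644065 (P15-6) miRNA reads behind the TPM values, and the median total was 1313603.5. TPM is the count of an entry over this total, scaled to transcripts per 1e6 reads, and 3 reads, taken as the limit that a count of 0 allows, stood for 1.82 TPM in P15-6 and 2.78 TPM in P15-48. Intervals are 95% intervals and cover counting error only, since each condition had 1 library. A further limit is that reads without molecular identifiers are not independent molecules. The 15 entries of miR2118 and miR2275, which trigger small RNAs in panicles and served as a marker of other tissue, had 181 to 228 reads in a library. The total in P15-6 was 12.6% of the clean reads, against 7.85% in P15-48, so the comparisons were also made with the clean reads as totals.

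Of the 3 sequences, miR160a/b/c/d-5p was the most abundant in every library, miR160e-5p came next and miR160f-5p last. miR160a/b/c/d-5p had 256, 154 and 299 TPM in P15-0, P15-6 and P15-48, against 208, 245 and 256 TPM in PC-0, PC-6 and PC-48. These values came from 365, 254 and 323 reads in P15 and from 280, 309 and 329 reads in PC. On the library totals behind TPM, P15-6 was the lowest library. Its interval, up to 175 TPM, lay below that of PC-0, the next in order, which began at 185 TPM. P15-6 also had the largest of these totals, and it was not compared with PC-0 under other scalings. Every other pair of neighbours in the order of the levels had overlapping intervals.

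miR160e-5p, the sequence that ends in G, had 196, 82.7 and 220 TPM in P15-0, P15-6 and P15-48, against 121, 181 and 170 TPM in PC-0, PC-6 and PC-48. These values came from 280, 136 and 237 reads in P15 and from 162, 228 and 218 reads in PC. On the same totals P15-6 was again the lowest, with an interval up to 97.9 TPM. PC-0 was next, with an interval of 103 to 141 TPM. PC-0 was in turn below PC-48, whose interval began at 148 TPM, and the 4 upper libraries overlapped from one to the next. The highest library, P15-48, was 2.66-fold above the lowest.

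miR160f-5p, the sequence with the inner substitution, had 121, 52.9 and 72.3 TPM in P15-0, P15-6 and P15-48, against 92.3, 100.1 and 67.8 TPM in PC-0, PC-6 and PC-48. These values came from 172, 87 and 78 reads in P15 and from 124, 126 and 87 reads in PC. Every pair of neighbours in its order overlapped, although P15-0 was 2.28-fold above P15-6. With the clean reads as totals P15-48 was below P15-6, at a ratio of 0.853 (0.620 to 1.17). Among the known mature sequences, miR160a/b/c/d-5p ranked 47 to 56, miR160e-5p 57 to 70 and miR160f-5p 70 to 82 by reads in a library. Summed over the 3 sequences, the family had 573, 290 and 591 TPM in P15-0, P15-6 and P15-48, against 421, 527 and 494 TPM in PC-0, PC-6 and PC-48.

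**Figure D1:**
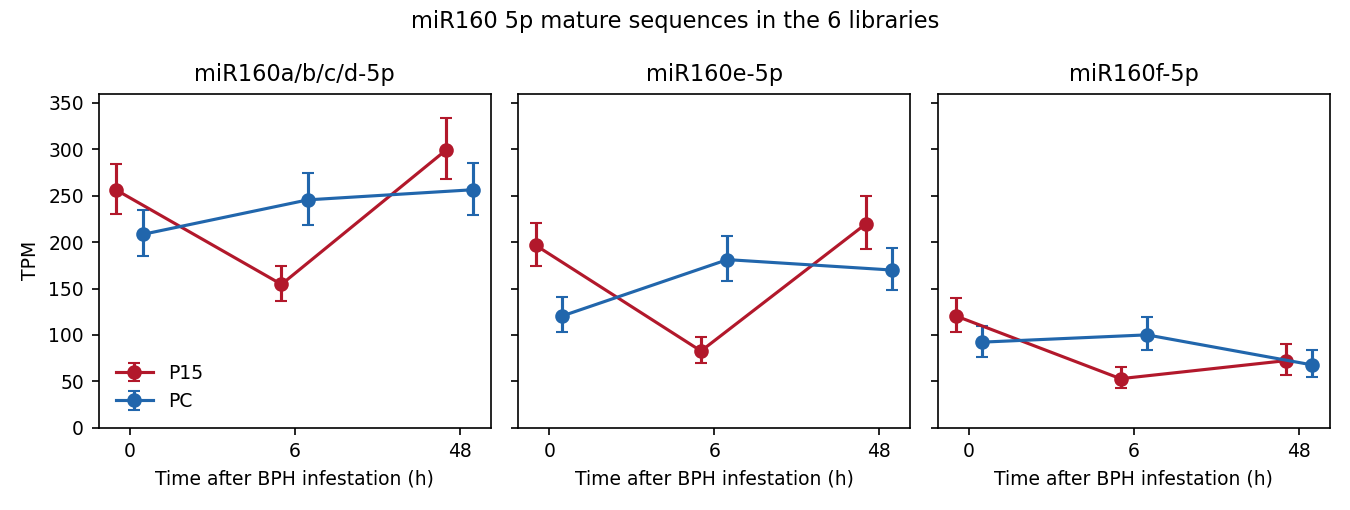
TPM of the 3 miR160 5p mature sequences (1 panel each) by time after BPH infestation in h, spaced evenly, with P15 in red and PC in blue. Points are single libraries and bars are exact 95% Poisson intervals for counting error. On the library totals behind TPM, P15-6 is the lowest point of each panel, at 154, 82.7 and 52.9 TPM.

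The effect of feeding in the resistant line was asked first. An entry is said to be up- or down-regulated where the absolute log2 fold change was at least 1 and the unadjusted P of edgeR's exact test under 0.05. With dispersion 0, this test compares 2 libraries and not 2 conditions, so no P is printed. In P15-6/P15-0, miR160e-5p and miR160f-5p were down-regulated, with log2 fold changes of -1.25 and -1.19. The ratio of TPM was 0.421 (0.341 to 0.519) for miR160e-5p and 0.439 (0.335 to 0.571) for miR160f-5p. miR160a/b/c/d-5p did not pass, at a ratio of 0.604 (0.512 to 0.710) and a log2 value of -0.73. Thus 2 of 3 sequences, or 2 of 6 entries, were down-regulated, where 60 of 432 tested entries (13.9%) were, and 0 were up-regulated. The median log2 fold change of the known entries with at least 20 reads was -0.51 in this comparison. Relative to it, miR160a/b/c/d-5p stood at -0.22, miR160e-5p at -0.73 and miR160f-5p at -0.68. With TMM scaling 7 entries were up- and 22 down-regulated in P15-6/P15-0, and 0 of the 3 sequences passed. The interval of miR160a/b/c/d-5p included 1 with median-of-ratios, at 0.855 (0.726 to 1.01).

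In P15-48/P15-6 the direction was the opposite, and both comparisons share P15-6. miR160e-5p was up-regulated, with a ratio of 2.66 (2.14 to 3.30) and a log2 fold change of 1.41. miR160a/b/c/d-5p had a ratio of 1.94 (1.64 to 2.29), just short of the limit, at a log2 value of 0.95. miR160f-5p had a ratio of 1.37 (0.994 to 1.88), whose interval includes 1. The 1 sequence called of 3 stands beside 51 of 422 tested entries called (12.1%) and 46 up-regulated (10.9%). The median over known entries was 0.31. With TMM scaling 10 entries were up- and 18 down-regulated there, and miR160e-5p had a log2 value of 0.98.

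Between P15-48 and P15-0 none of the 3 sequences was called, where 29 of 428 entries were (6.78%). The ratio was 1.17 (1.00 to 1.36) for miR160a/b/c/d-5p and 1.12 for miR160e-5p, against 0.600 (0.453 to 0.788) for miR160f-5p. miR160f-5p was thus the sequence with a P15-48 level below that of P15-0 by more than counting error, and its interval stayed below 1 under all 4 scalings. With the clean reads as totals miR160f-5p passed, at a log2 value of -1.12, and the log2 values of miR160a/b/c/d-5p and miR160e-5p turned to -0.15 and -0.22. The splits of the calls also depended on scaling, with 9 up- and 20 down-regulated entries on library totals 12 and 8 under median-of-ratios scaling, and 1 and 72 on the clean reads.

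The same question was put to the susceptible line. In PC-6/PC-0 none of the 3 sequences was called, where 33 of 428 entries were (7.71%), and all 3 ratios were above 1. The ratio was 1.18 (0.999 to 1.39) for miR160a/b/c/d-5p, 1.5 (1.22 to 1.85) for miR160e-5p and 1.08 (0.840 to 1.40) for miR160f-5p. The median log2 fold change over known entries was -0.14, and 31 of the 33 entries called were down-regulated, or 16 of 25 with TMM scaling. In PC-48/PC-0, where 47 of 434 entries were called (10.8%), none of the 3 passed, and 6 entries were up- and 41 down-regulated, or 11 and 27 with TMM scaling. There the ratio was 1.23 (1.05 to 1.45) for miR160a/b/c/d-5p and 1.41 (1.14 to 1.74) for miR160e-5p, against 0.735 (0.552 to 0.974) for miR160f-5p. With clean reads as totals the interval of miR160a/b/c/d-5p included 1, at 1.14 (0.966 to 1.34). In PC-48/PC-6, with 31 of 436 entries called (7.11%), 15 up- and 16 down-regulated or 9 and 18 with clean reads, none passed, and miR160f-5p had a ratio of 0.677 (0.509 to 0.897), while those of the other sequences were 1.04 and 0.938. On the library totals miR160f-5p alone of the 3 had a PC-48 level below that of PC-0 and of PC-6 by more than counting error. Against PC-0 its interval included 1 with TMM, at 0.844 (0.634 to 1.12), and with median-of-ratios, at 0.776 (0.583 to 1.03).

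The lines were then compared at each time. Before infestation, in P15-0/PC-0, all 3 sequences were higher in P15 by less than the limit, with ratios of 1.23 (1.05 to 1.44) for miR160a/b/c/d-5p, 1.63 (1.34 to 1.99) for miR160e-5p and 1.31 (1.03 to 1.66) for miR160f-5p. The interval of miR160f-5p included 1 with median-of-ratios, at 1.26 (0.996 to 1.60). None was called, where 23 of 435 entries were (5.29%). At 6 h, in P15-6/PC-6, miR160e-5p was down-regulated, with a ratio of 0.457 (0.367 to 0.567) and a log2 fold change of -1.13. miR160a/b/c/d-5p had a ratio of 0.629 (0.531 to 0.745) and miR160f-5p one of 0.529 (0.398 to 0.700), and neither passed. The 1 sequence called of 3 stands beside 40 of 429 entries called (9.32%) and 31 down-regulated (7.23%). The median log2 fold change was -0.32, and with median-of-ratios scaling the calls turned to 30 up- and 9 down-regulated entries, with 0 of the 3 sequences called. In P15-48/PC-48 none passed, where 28 of 426 entries did (6.57%), 23 up- and 5 down-regulated or 16 and 7 with TMM scaling. The ratio there was 1.17 (0.999 to 1.37) for miR160a/b/c/d-5p, 1.29 (1.07 to 1.56) for miR160e-5p and 1.07 (0.775 to 1.46) for miR160f-5p, the last below 1 with TMM or clean reads. The interval of miR160e-5p included 1 with TMM, at 1.17 (0.971 to 1.41), and with clean reads, at 1.13 (0.939 to 1.37). That of miR160a/b/c/d-5p lay above 1 with median-of-ratios, at 1.19 (1.02 to 1.39).

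**Figure D2:**
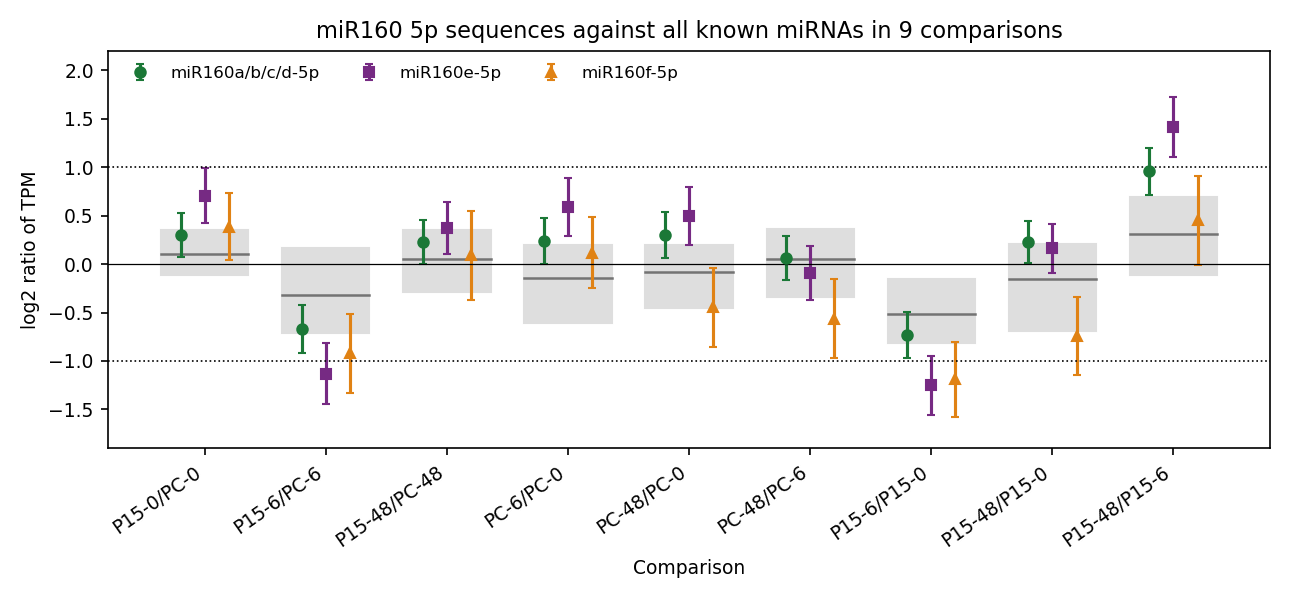
The log2 ratio of TPM for the 3 mature sequences in 9 comparisons, with 95% counting intervals; the grey box and line give the middle 50% and the median of edgeR's log2 fold changes over known entries with at least 20 reads, and the dotted lines mark the limit of 1 for a call. miR160e-5p lies beyond the limit in P15-6/PC-6 (-1.13), P15-6/P15-0 (-1.25) and P15-48/P15-6 (1.41), and miR160f-5p in P15-6/P15-0 (-1.19).

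Whether P15 and PC responded differently was measured as the log2 ratio to 0 h in P15 minus that in PC. At 6 h this difference was -1.83 (-2.25 to -1.42) for miR160e-5p, -1.31 (-1.82 to -0.79) for miR160f-5p and -0.96 (-1.29 to -0.64) for miR160a/b/c/d-5p. All 3 were thus lower in the P15 response by more than counting error. Over the 147 distinct known sequences with at least 100 reads, the median difference at 6 h was -0.29 on the library totals. The middle 50% lay between -0.78 and -0.01. Of the other sequences, 3 lay below miR160e-5p, 11 below miR160f-5p and 27 below miR160a/b/c/d-5p. The scaling moved the sizes and left every interval at 6 h below 0. The value nearest to 0 came with median-of-ratios, at -1.41 (-1.83 to -0.997) for miR160e-5p, -0.88 (-1.40 to -0.37) for miR160f-5p and -0.54 (-0.87 to -0.21) for miR160a/b/c/d-5p. The variation between plants is in none of these intervals. How many of the 147 sequences had an interval at 6 h that excluded 0 was not counted.

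At 48 h the differences were smaller, and with the library totals all 3 intervals included 0. They were -0.33 (-0.72 to 0.05) for miR160e-5p, -0.29 (-0.85 to 0.26) for miR160f-5p and -0.07 (-0.39 to 0.24) for miR160a/b/c/d-5p, beside a median of 0.12 over the 147 sequences. With TMM the interval of miR160e-5p lay below 0, at -0.55 (-0.94 to -0.17). With the clean reads as totals all 3 did, and miR160e-5p was then at -0.60. The differences at 6 and at 48 h share the libraries P15-0 and PC-0.

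**Figure D3:**
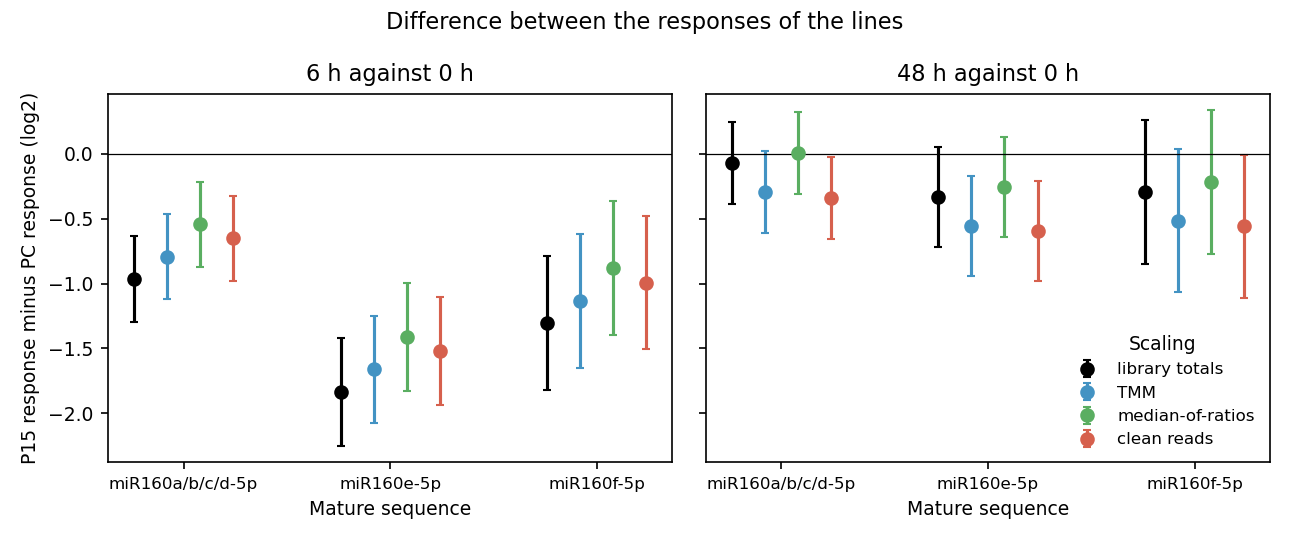
The P15 response minus the PC response (log2) at 6 h (left) and 48 h (right), for the 3 mature sequences under 4 scalings, with 95% counting intervals from 4 libraries each. At 6 h every interval is below 0, with miR160e-5p between -1.83 and -1.41; at 48 h most include 0.

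A fit over all 6 libraries with line and time as additive terms (edgeR quasi-likelihood, TMM, Benjamini-Hochberg adjustment) called none of the 3 sequences. Any unequal response of P15 and PC counts as error in this fit, which has 2 residual degrees of freedom. The P15 effect was 0.01 (SE 0.25, adjusted p = 0.985) for miR160a/b/c/d-5p, 0.05 (SE 0.27, adjusted p = 0.985) for miR160e-5p and -0.08 (SE 0.29, adjusted p = 0.963) for miR160f-5p on the log2 scale, where 15 of 281 entries passed (5.34%). At 6 h against 0 h the effect was 0.06 for miR160a/b/c/d-5p, 0.01 for miR160e-5p and -0.22 for miR160f-5p, with adjusted p of 0.836 to 0.988, and 1 of 281 entries passed (0.356%). At 48 h against 0 h it was 0.42 (SE 0.31, adjusted p = 0.452) for miR160a/b/c/d-5p, 0.46 (SE 0.32, adjusted p = 0.425) for miR160e-5p and -0.45 (SE 0.35, adjusted p = 0.47) for miR160f-5p, where 6 of 281 entries passed (2.14%). DESeq2 called none of the 3 in any of these effects, and 0 of the 3 had an unadjusted p under 0.05 with either tool.

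Ratios of 2 sequences within a library do not depend on scaling, and they showed that the 3 sequences did not move alike. The ratio of miR160f-5p to miR160a/b/c/d-5p was 0.471, 0.343 and 0.241 at 0, 6 and 48 h in P15, against 0.443, 0.408 and 0.264 in PC. It was thus lowest at 48 h in both lines. The ratio in P15-48 was 0.512 (0.377 to 0.696) of that in P15-0, and the ratio in PC-48 was 0.597 (0.435 to 0.820) of that in PC-0. The same held against miR160e-5p, at 0.536 (0.390 to 0.737) in P15 and 0.521 (0.371 to 0.733) in PC. The share of miR160f-5p in the reads of the 3 sequences was 21.1, 18.2 and 12.2% at 0, 6 and 48 h in P15 and 21.9, 19.0 and 13.7% in PC. The Wilson intervals were 9.91 to 15% in P15-48 and 18.4 to 24.0% in P15-0. In PC they were 11.3 to 16.6% in PC-48 and 18.7 to 25.5% in PC-0.

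The ratio of miR160e-5p to miR160a/b/c/d-5p differed between the libraries P15-0 and PC-0, between P15-6 and PC-6, and between P15-6 and P15-0 or P15-48. It was 0.767, 0.535 and 0.734 at 0, 6 and 48 h in P15, against 0.579, 0.738 and 0.663 in PC. The ratio in P15-6 was 0.698 (0.538 to 0.905) of that in P15-0 and 0.726 (0.554 to 0.950) of that in PC-6. In P15-0 it was 1.33 (1.03 to 1.70) times that in PC-0, and in P15-48 1.37 (1.05 to 1.79) times that in P15-6. In P15-6, miR160e-5p was thus lower relative to the sequence from which it differs by its last base than in P15-0 and in PC-6. In P15-48/PC-48 the change was 1.11 (0.871 to 1.41) and in P15-48/P15-0 0.956 (0.761 to 1.202), and the 3 comparisons within PC also had intervals that included 1, with changes of 0.898 to 1.28. The 4 above are among 27 such changes of ratio computed among the 3 sequences, and their intervals are not adjusted for that number. The bounds nearest 1 are 1.03 and 0.950. All these intervals, also those of miR160f-5p, take the reads of the sequences as separate, which the sources used here do not state.

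**Figure D4:**
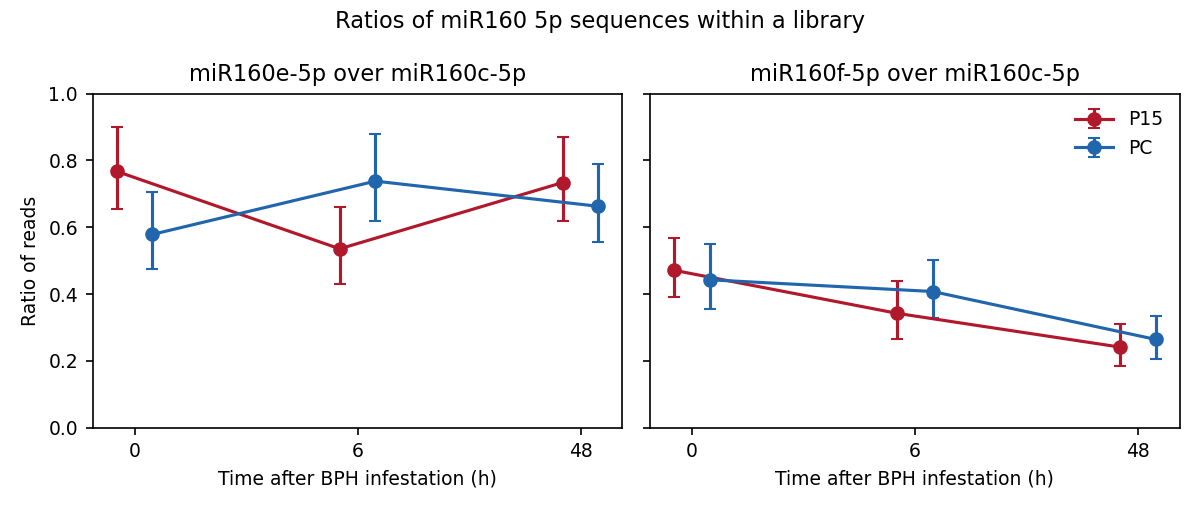
Reads of miR160e-5p (left) and miR160f-5p (right) over those of miR160c-5p, which stands for miR160a/b/c/d-5p, by time after BPH infestation in h, spaced evenly, with P15 in red and PC in blue and exact 95% intervals. The miR160f-5p ratio is 0.241 in P15-48 and 0.264 in PC-48, below 0.471 in P15-0 and 0.443 in PC-0.

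The passenger strands of the same hairpins were scarce. miR160f-3p had 140 reads over the 6 libraries, miR160c-3p 44, miR160a-3p and miR160b-3p, which are identical, 34, miR160e-3p 17 and miR160d-3p 1. miR160f was the hairpin with the smallest excess of guide over passenger strand, at 3.91 to 9.67 reads of miR160f-5p for each read of miR160f-3p, while miR160c had 25.5 to 127 and miR160e 45.6 to 237. The number for miR160c takes all reads of a sequence shared by 4 hairpins. miR160f-3p had 44, 17 and 16 reads in P15-0, P15-6 and P15-48, against 29, 25 and 9 in PC-0, PC-6 and PC-48. It was down-regulated in P15-6/P15-0, at a ratio of 0.335 (0.180 to 0.599), and in P15-48/P15-0, at 0.481 (0.253 to 0.869). In PC it was down-regulated in PC-48/PC-0, at 0.325 (0.135 to 0.705), and in PC-48/PC-6, at 0.353 (0.145 to 0.782). Of all tested entries, 13.9% were called in P15-6/P15-0, 6.78% in P15-48/P15-0, 10.8% in PC-48/PC-0 and 7.11% in PC-48/PC-6. miR160c-3p was called on few reads, with 2 in P15-6 against 11 in P15-0, 10 in PC-6 and 7 in P15-48. It was down-regulated in P15-6/P15-0, at 0.158 (0.0170 to 0.723), and in P15-6/PC-6, at 0.153 (0.0163 to 0.719). It was up-regulated in P15-48/P15-6, at 5.33 (1.02 to 52.6), with an interval that began just above 1. Of all tested entries, 9.32% were called in P15-6/PC-6 and 12.1% in P15-48/P15-6. The calls and ratios of miR160f-3p and miR160c-3p are given on the library totals alone. The number of miR160f-5p reads for each read of miR160f-3p changed by a factor whose interval included 1 in every comparison except PC-48/PC-0, where it was 2.26 (1.02 to 5.01).

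MIR160-x is the other-plant entry with the seed of the members. It had 19 nt and differed from miR160a/b/c/d-5p by G18T and C19T within its length.
MIR160-x: tGCCTGGCtccctgtattt
It had 110, 85 and 113 reads in P15-0, P15-6 and P15-48, against 65, 91 and 83 reads in PC-0, PC-6 and PC-48. Its lowest library was PC-0, at 48.4 TPM, and P15-6 was close to it, at 51.7 TPM. Its ratio was 0.670 (0.499 to 0.898) in P15-6/P15-0, 2.03 (1.52 to 2.72) in P15-48/P15-6 and 0.715 (0.526 to 0.972) in P15-6/PC-6. In P15-0/PC-0 its ratio was 1.59 (1.16 to 2.202), and in P15-48/PC-48 it was 1.62 (1.21 to 2.18). These levels and ratios of MIR160-x are given on the library totals alone. Its ratio to miR160a/b/c/d-5p changed by a factor of 1.39 (1.005 to 1.91) in P15-48/PC-48, whose interval lay just above 1, and by factors with intervals that included 1 in the other 8 comparisons, such as 1.11 (0.802 to 1.54) in P15-6/P15-0.

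Other miRNAs of the auxin pathway were set beside the family. The list held 13 guide entries with 5 distinct sequences, namely miR167, which targets activating ARFs, miR390, which sets off the trans-acting siRNAs against ARF3 and ARF4 in Arabidopsis, and miR393, which targets auxin receptors of the TIR1 family. In P15-6/P15-0, 3 of the 13 entries, or 1 of the 5 sequences, were down-regulated, all with the sequence of miR167a-5p, at a log2 value of -1.15, where 13.9% of all tested entries were. In each of the other 8 comparisons 0 of the 13 were called, where 5.29 to 12.1% of all tested entries were. In PC-6/PC-0 the 5 sequences had log2 values of -0.70 to -0.37, whereas the miR160 guides had 0.12 to 0.59. At 6 h the P15 response minus the PC response was -0.45 (-0.72 to -0.19) for miR167a-5p, -0.23 for miR390-5p, -0.24 for miR393a and for miR393b-5p, and 0.19 (0.14 to 0.24) for miR167f. On the library totals every one of them lay nearer to 0 than the 3 miR160 guides, whose values ran from -1.83 to -0.96. With median-of-ratios miR167f was at 0.61, farther from 0 than miR160a/b/c/d-5p at -0.54. Under that scaling miR393a (0.18), miR393b-5p (0.18) and miR390-5p (0.19) turned positive, with intervals above 0. The interval of miR167a-5p then included 0, at -0.03 (-0.30 to 0.24).

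The patterns most like that of miR160a/b/c/d-5p were sought among 143 known sequences outside the family with at least 100 reads, by the Pearson correlation of log2(TPM + 1) over the 6 libraries. The members themselves had r of 0.98 between miR160a/b/c/d-5p and miR160e-5p, 0.47 between miR160a/b/c/d-5p and miR160f-5p and 0.56 between miR160e-5p and miR160f-5p. Outside the family, r was 0.96 for miR394, which targets an F-box gene, 0.93 for miR171f-3p, whose family targets GRAS genes, 0.93 for miR1425-5p, 0.92 for miR169i-3p and 0.90 for miR172d-3p, whose family targets AP2-like genes. On the library totals all 5 had their lowest value in P15-6, such as 231 TPM for miR394 and 7660 TPM for miR1425-5p. The points are 6 libraries that share their depth and totals across miRNAs, so these values only describe likeness.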

How the data were processed

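Reads of the small RNA libraries were filtered by the authors for quality, adaptors and length, cleared of other RNA classes and searched against miRBase release 21. The sources used here name neither the aligner nor the mismatches allowed. The authors deposited for each entry and library a read count and its TPM. The deposited TPM was treated as a score, because entries share reads and sum to 3.60 to 3.88 times the total behind it. That total was computed back from counts and TPM and is the depth used. In the deposited table an absent entry has 0.01 TPM. There were 0 per-sample columns of other samples.

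Pairs of libraries were compared with edgeR 4.0.16 in R 4.3.3 (exactTest, dispersion 0, prior count 0.125, known entries). The submitters' processing notes name edgeR, and the thresholds are those of the study. The fit over 6 libraries used glmQLFit and filterByExpr, and the additive effects were recomputed with DESeq2 1.42.0. Ratios of TPM have exact conditional binomial intervals, differences of responses delta-method intervals and levels exact Poisson intervals, computed with Python 3.11.15, pandas 2.3.3 and scipy 1.17.1. Figures were drawn with matplotlib 3.10.9. The test of library pairs and the P15 effect of the additive fit were tested on simulated data. The response differences, shares and changes of ratio were not.

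Named were all 6 members, their 3p strands, MIR160-x and MIR160-y (3 reads in all), an auxin list by family number and the 5 most correlated sequences. Members and lists were chosen with earlier results of these data known. Alternatives were TMM, median-of-ratios and clean reads as scalings, dispersions of 0.04 and 0.16, a minimum of 20 reads, identical entries once, and for the additive fit also no filter, DESeq2 and leaving out each library. No genome positions of the hairpins were used here.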

Additional observations from a re-analysis of the deposited data

Results flagged for a closer look

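The difference between the responses of P15 and PC at 6 h lay outside counting error for all 3 mature sequences, at -0.96 for miR160a/b/c/d-5p, -1.83 for miR160e-5p and -1.31 for miR160f-5p on the log2 scale. The difference was set against counting intervals alone, since 1 library per condition allows no test against the variation between plants. On the library totals the differences of miR167a-5p, miR390-5p, miR393a and miR393b-5p also lay outside counting error. That of miR167f did too, in the opposite direction. How many of the 147 sequences behind the median did so was not counted. On the library totals the median over 147 sequences moved the same way, by -0.29. A change of scaling moves this median by the same amount as the 3 sequences, so its direction depends on the scaling.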

How the results depend on the processing

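The labels give no replicate numbers, so the pairing of libraries is by time alone, as a term of the additive fit. The calls depended on scaling and on the assumed dispersion, whose effect comes by construction with a wider spread. In P15-6/PC-6 the 1 sequence called became 0 with TMM, median-of-ratios, clean reads and a dispersion of 0.16, and in P15-6/P15-0 the 2 called became 0 under the same alternatives. In P15-48/P15-6 the 1 called became 0 with TMM, clean reads and a dispersion of 0.16. In P15-48/P15-0 the clean reads gave 1 call, against 0. With a dispersion of 0.04, a minimum of 20 reads or identical entries taken once, these counts were within 1.5 times. With median-of-ratios the response difference at 6 h was -0.54 for miR160a/b/c/d-5p and -1.41 for miR160e-5p. Signs turned, in values that were not called, for miR160f-5p in P15-48/PC-48 (-0.0496 with TMM, -0.10 with clean reads), and with clean reads for miR160a/b/c/d-5p in PC-48/PC-6 (-0.0379) and P15-48/P15-0 (-0.15), for miR160e-5p in P15-48/P15-0 (-0.22) and for miR160f-5p in P15-48/P15-6 (-0.23). The causes were not tested.

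In the additive fit 0 of 99 alternative values were called. Without TMM the P15 effect turned to -0.0455 for miR160a/b/c/d-5p and -0.0027 for miR160e-5p, and the 6 h effect to -0.22 and -0.27. For miR160e-5p the 6 h effect was also -0.0042 with median-of-ratios, -0.003 with DESeq2 and -0.0258 with identical entries once. Leaving out 1 library at a time, the P15 effect ranged from -0.24 to 0.14 for miR160a/b/c/d-5p, -0.40 to 0.41 for miR160e-5p and -0.44 to 0.13 for miR160f-5p. The 6 h effect ranged from -0.23 to 0.39, -0.65 to 0.67 and -0.66 to 0.22 for the same sequences, and the 48 h effect of miR160e-5p from -0.11 to 1.01. Depth limits the 3p strands most, with 1 to 44 reads in a library where any were found.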
